A study of Mus musculus with 8 samples.

Results

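The transcripts of 34 mitosis genes, which encode the kinases, motors, kinetochore proteins, cyclins and spindle proteins that carry a cell through division, were followed in mouse ovarian tumours shortly after inhibition of the JAK kinases. The genes were chosen by name, with earlier results of these data known, and all had a probe on the array. A signal well above background was required on 4 or more arrays, and 33 of the 34 met this, each on all 8, among 19778 genes tested. The exception was Aurkb, the kinase of the chromosomal passenger complex, whose probe was well above background on 2 AZD1480 arrays and 0 vehicle arrays, so it has no test.

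All 8 mice were females of the C57BL/6JTgMISIIR-TAg strain, in which the Müllerian inhibiting substance type II receptor promoter drives SV40 T antigen, so controls and treated mice both carried the oncogene. Their ovarian tumours had reached about 500 mm3. The 4 control mice received vehicle (0.5% hypermellose with 0.1% Tween 80), and the 4 treated mice received AZD1480, an inhibitor of JAK1 and JAK2, at 30 mg/kg in that vehicle. Tumours were taken 6 h later, and the total RNA of each tumour went on a separate one-colour array, so n = 4 mice per group throughout.

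Entry into mitosis turns on Cdk1 bound to cyclins A and B, which is activated by the phosphatase Cdc25c and reinforced by the kinases Aurka and Plk1. Most of these transcripts accumulate together in G2 and mitosis, through promoters that carry CCAAT boxes bound by NF-Y and a cell cycle homology region (CHR) bound by the MuvB complex with B-Myb and Foxm1. T antigen inactivates the Rb proteins and p53, which normally restrain these promoters in resting cells.

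The promoters of the 34 genes were examined for these letters, since a shared promoter grammar is the best known link between the members. The letters are already known from genes of this kind, so their frequency describes the list and is not an independent finding. Promoters were those of RefSeq on GRCm38.p6, from 250 bases before to 50 after each annotated start. Matches were found by name for 28 members, which gave 29 promoters; Aurkb, Ccna2, Cdc25c, Foxm1, Kif20a and Tpx2 were not matched. The 150 bases before the start are shown for 6 members that the results turn on: Troap, Espl1, Hmmr, Cdc20 and Aurka, 5 of the members with an unadjusted p under 0.05, and Cdk1, the central kinase of mitotic entry. Capitals mark CCAAT and the CHR core TTTGAA, on either strand (ATTGG and TTCAAA).
Troap (chr15:99074823-99074972, plus strand): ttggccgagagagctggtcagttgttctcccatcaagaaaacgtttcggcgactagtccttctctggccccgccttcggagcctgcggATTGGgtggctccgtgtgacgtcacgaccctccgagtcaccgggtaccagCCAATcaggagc
Espl1 (chr15:102296143-102296292, plus strand): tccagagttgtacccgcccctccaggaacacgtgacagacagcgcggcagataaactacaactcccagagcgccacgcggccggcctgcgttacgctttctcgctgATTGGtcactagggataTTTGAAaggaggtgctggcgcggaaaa
Hmmr (chr11:40733438-40733587, minus strand): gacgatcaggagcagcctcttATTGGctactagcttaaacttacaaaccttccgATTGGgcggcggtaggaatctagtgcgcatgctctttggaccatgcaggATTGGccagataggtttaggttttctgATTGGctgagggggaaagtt
Cdc20 (chr4:118437344-118437493, minus strand): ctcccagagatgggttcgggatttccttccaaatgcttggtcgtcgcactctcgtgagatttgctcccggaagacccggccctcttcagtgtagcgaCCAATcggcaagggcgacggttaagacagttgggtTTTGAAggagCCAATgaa
Aurka (chr2:172370571-172370720, minus strand): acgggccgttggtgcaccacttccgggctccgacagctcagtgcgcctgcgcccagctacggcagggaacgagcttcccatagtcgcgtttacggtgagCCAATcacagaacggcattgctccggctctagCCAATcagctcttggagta
Cdk1 (chr10:69352913-69353062, minus strand): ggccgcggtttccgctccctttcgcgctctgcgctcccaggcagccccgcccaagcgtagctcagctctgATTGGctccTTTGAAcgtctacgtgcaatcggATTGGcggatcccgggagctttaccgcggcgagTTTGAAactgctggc

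The core TTTGAA was present, on either strand, in 20 of the 29 member promoters (69.0%), against 17.9% of all 32851 promoters of the same length. CCAAT was present in 23 of 29 (79.3%), against 37.4% of all promoters, and the letters occurred together in 18 (62.1%), against 6.95%. The CHR core also sat close to the start. A match within 50 bases on either side was found in 18 member promoters (62.1%) and in 4.94% of all promoters. In Espl1 the core began 27 bases before the start, in Cdc20 18 bases before it, and in Cdk1 71 and 15 bases before it. In Hmmr and Aurka it lay 8 and 32 bases after the start, beyond the letters shown. Troap had 3 CCAAT matches and no TTTGAA in its window, and Hmmr had 5 CCAAT matches. In Hmmr 1 of these lies upstream of the letters shown. In Troap 1 begins 151 bases before the start, across the edge of the letters shown, and is not in capitals. Among the 28 matched members the median difference in expression, described next, was 0.25 for the 19 with TTTGAA and 0.26 for the 9 without. Genes of mitosis outside the 34 held TTTGAA in 42.6% of 108 promoters, and DNA replication genes in 11.4% of 35.

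**Figure D1:**
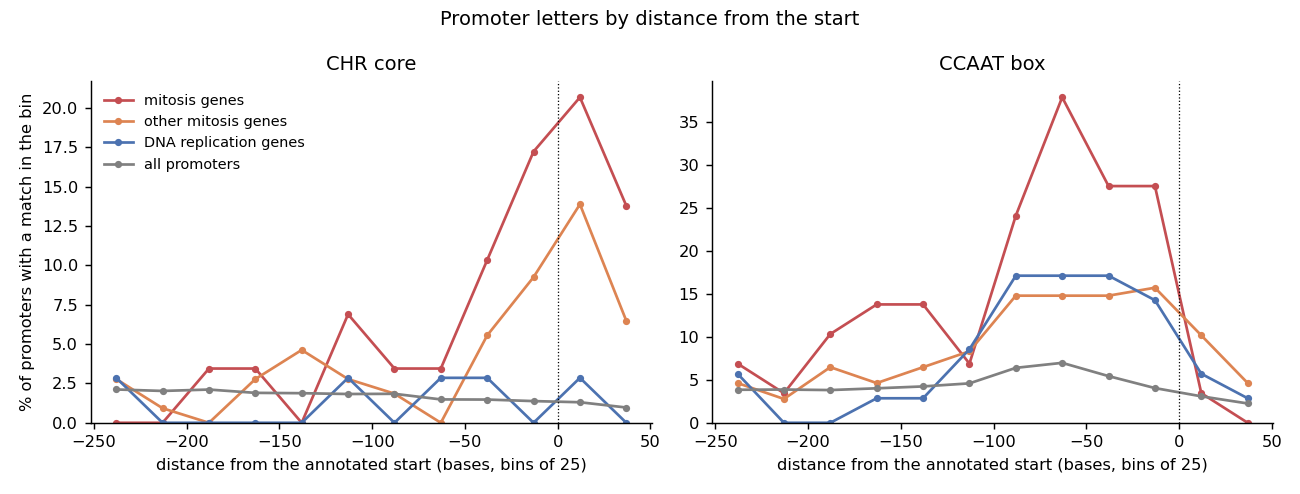
The x axis is the distance in bases from the annotated start, in bins of 25, and the y axis is the percent of promoters with a match that begins in the bin, for the CHR core (left) and the CCAAT box (right). In the mitosis genes the CHR core reached 20.7% of promoters in the bin just after the start, against 1.31% of all promoters, and CCAAT reached 37.9% in the bin from 75 to 51 bases before it, against 6.99%.

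Mitosis transcripts were mostly higher in the AZD1480 tumours, by small amounts. Of the 33 tested genes 32 had a positive difference, where 56.5% of all genes did. The median difference was 0.26 on the log2 scale, against 0.045 over all genes, and the largest was that of Troap at 0.86. No member passed limma's test with Benjamini-Hochberg adjustment over all genes (threshold 0.05), and neither did any other gene on the array (0.0% called); the members' adjusted p lay between 0.974 and 0.993. With no adjustment 11 members had p under 0.05 and a higher level in AZD1480 tumours, and 0 a lower one, against 1.72% of all genes higher and 1.74% lower. The groups did not overlap in 11 members, all higher, where 1.21% of all genes were separate and higher and 1.41% separate and lower. Because the list was chosen with earlier results of these data known, these shares describe it and are not independent support. Values are log2 processed signal relative to the 75th percentile of the array, and differences are AZD1480 minus vehicle with limma's moderated SE.

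**Figure D2:**
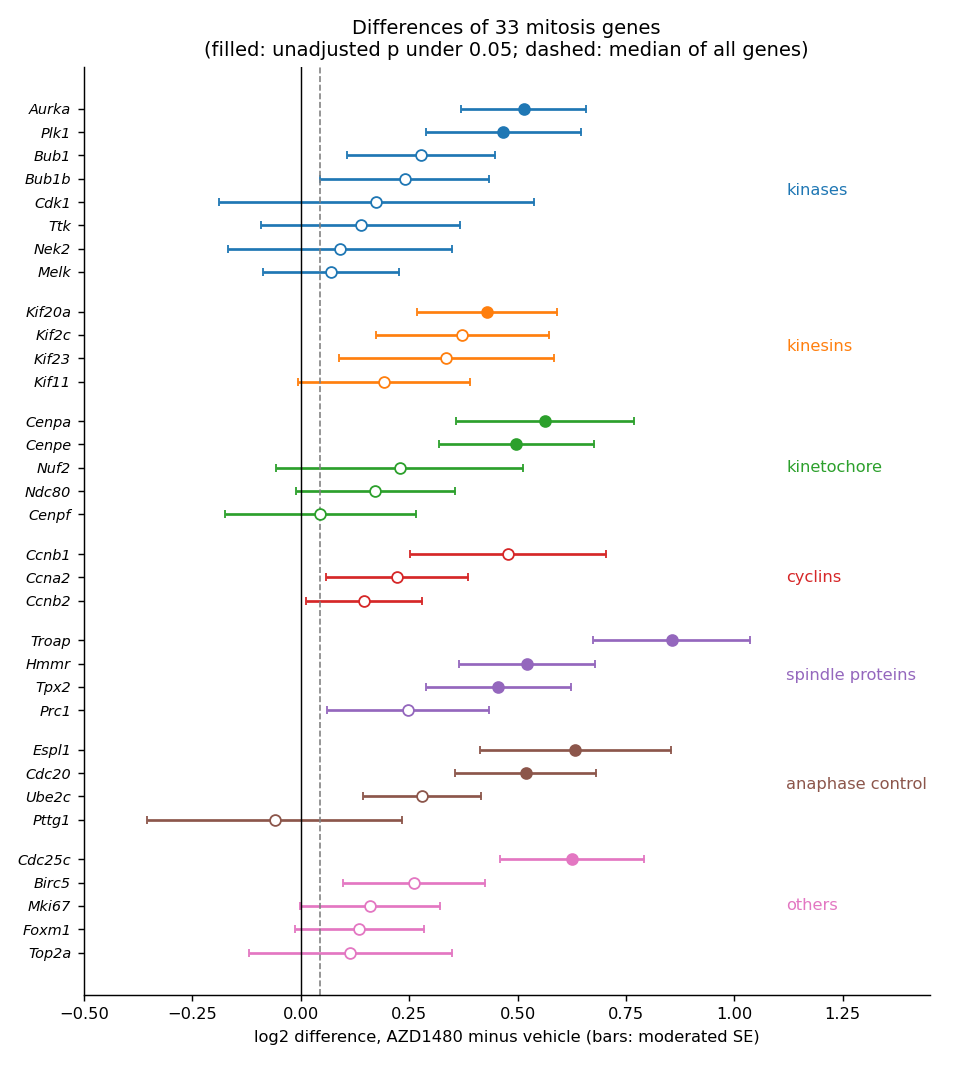
Each point is the log2 difference of 1 gene, AZD1480 minus vehicle (x axis), grouped and coloured by role, with bars of 1 moderated SE (n = 4 arrays per group); filled points have an unadjusted limma p under 0.05 and the dashed line is the median of all genes. Only Pttg1, at -0.060, lies left of 0, and Troap, at 0.86, lies farthest right.

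Among the kinases all 8 tested members had a positive difference, with a median of 0.21. Aurka, which builds the spindle poles and activates Plk1, measured 2.06, 1.96, 1.79 and 2.09 in vehicle replicates 1 to 4 and 2.57, 2.35, 2.45 and 2.59 in AZD1480 replicates 1 to 4. Every treated tumour lay above every control, and the difference was 0.51 ± 0.14 (1.43-fold, limma unadjusted p = 0.00741). Plk1, which drives mitotic entry, centrosome maturation and cytokinesis, measured 2.96, 2.66, 2.88 and 3.02 in vehicle and 3.04, 3.32, 3.36 and 3.67 in AZD1480 tumours. The groups did not overlap, although AZD1480 replicate 1 stood barely above vehicle replicate 4, and the difference was 0.47 ± 0.18 (limma unadjusted p = 0.0316). Bub1, a checkpoint kinase at kinetochores, also separated the groups with a smaller difference of 0.28 ± 0.17 (limma unadjusted p = 0.143). Its lowest treated tumour, at -0.290, stood barely above its highest control, at -0.305. Bub1b, its partner, was at 0.24 ± 0.20. Bub1b and the other kinases overlapped between groups. Cdk1 itself was at 0.17 ± 0.36, with AZD1480 replicate 1 highest at 2.28 and replicate 4 lowest at 0.79, and without AZD1480 replicate 1 its difference was -0.12. Other probes of Cdk1 gave 0.19 ± 0.18 and 0.16 ± 0.997, so the spread differs by probe. Ttk, the kinase that starts the spindle checkpoint, Nek2, a centrosome kinase, and Melk were at 0.14 ± 0.23, 0.091 ± 0.26 and 0.069 ± 0.16.

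Kinesins, the motors of the spindle, gave 4 positive differences of 4. Kif20a, which acts at the central spindle in cytokinesis, measured 2.25, 1.97, 1.91 and 2.06 in vehicle and 2.36, 2.66, 2.63 and 2.26 in AZD1480 tumours. The lowest treated tumour stood just above the highest control, and the difference was 0.43 ± 0.16 (limma unadjusted p = 0.0296). Kif2c, which depolymerises microtubules at centromeres, was at 0.37 ± 0.20, and its second probe gave 0.37 as well. Kif23, another cytokinesis motor, and Kif11, which pushes spindle poles apart, were at 0.34 ± 0.25 and 0.19 ± 0.20, and their groups overlapped.

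The kinetochore genes also had positive differences in 5 of 5, with no gene whose groups were separate. Cenpe, a kinesin that brings chromosomes to the spindle equator, measured 2.27, 2.40, 2.39 and 2.50 in vehicle and 2.47, 2.99, 3.13 and 2.96 in AZD1480 tumours. AZD1480 replicate 1 lay within the control range and the other 3 above it (difference 0.50 ± 0.18, limma unadjusted p = 0.0246). Cenpa, the histone variant that marks centromeres, measured 1.43, 1.95, 1.09 and 1.37 in vehicle and 1.96, 2.18, 2.05 and 1.89 in AZD1480 tumours. Here vehicle replicate 2 overlapped the treated range, and the difference was 0.56 ± 0.21 (limma unadjusted p = 0.026). Ndc80 and Nuf2, subunits of the complex that grips microtubules, were at 0.17 ± 0.18 and 0.23 ± 0.29, and the large scaffold Cenpf was at 0.045 ± 0.22. Nuf2 in AZD1480 replicate 4, at -0.51, was below all controls while the other 3 treated tumours were above them.

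None of the 3 cyclins had an unadjusted limma p under 0.05, though all were positive. Ccnb1, the main partner of Cdk1 at mitotic entry, measured 2.07, 2.42, 2.38 and 2.40 in vehicle and 2.22, 2.81, 3.06 and 3.09 in AZD1480 tumours. Replicates 2 to 4 were above all controls and replicate 1 was not, and the difference of 0.48 ± 0.23 had a limma unadjusted p of 0.0676. Its 3 probes gave 0.44, 0.48 and 0.53. Ccna2, active from S phase to early mitosis, and Ccnb2 were at 0.22 ± 0.16 and 0.15 ± 0.13.

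Spindle proteins had the highest median of the role groups, 0.49, and 4 of 4 were positive. Troap, a protein required for spindle assembly, measured -1.73, -1.93, -1.83 and -1.81 in vehicle and -0.74, -1.38, -1.02 and -0.75 in AZD1480 tumours. The controls lay close together and every treated tumour above them, with a difference of 0.86 ± 0.18 (1.81-fold, limma unadjusted p = 0.00161). Hmmr, a microtubule-binding protein of the spindle poles, measured 1.29, 1.25, 0.88 and 0.94 in vehicle and 1.57, 1.67, 1.51 and 1.70 in AZD1480 tumours. Its groups were also separate (difference 0.52 ± 0.16, limma unadjusted p = 0.0107). Tpx2, the activator and spindle anchor of Aurka, measured 1.70, 1.25, 1.28 and 1.34 in vehicle and 2.08, 1.77, 1.71 and 1.83 in AZD1480 tumours. That difference was 0.46 ± 0.17 (limma unadjusted p = 0.0264), with vehicle replicate 1 just below AZD1480 replicate 3, and its second probe gave 0.23. Prc1, which bundles the microtubules of the central spindle, was at 0.25 ± 0.19.

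Anaphase is released when Cdc20 and the anaphase-promoting complex destroy securin (Pttg1) and free separase (Espl1). Cdc20 measured 4.51, 4.29, 4.24 and 4.49 in vehicle and 4.68, 4.81, 4.92 and 5.18 in AZD1480 tumours, without overlap (difference 0.52 ± 0.16, limma unadjusted p = 0.0131). Espl1 measured 0.04, -0.37, -0.37 and -0.34 in vehicle and 0.88, 0.057, 0.14 and 0.41 in AZD1480 tumours. Vehicle replicate 1 stood above the other controls and just below AZD1480 replicate 2, and the difference was 0.63 ± 0.22 (limma unadjusted p = 0.0213). Ube2c, the ubiquitin-conjugating enzyme of the complex, did not overlap between groups either, at 0.28 ± 0.14 (limma unadjusted p = 0.0737). Each of its 2 probes gave 0.28. Pttg1 was the only tested member with a negative difference, -0.06 ± 0.29, and its second probe was at 0.19.

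Of the remaining members Cdc25c differed most. It measured -1.71, -1.78, -1.95 and -1.68 in vehicle and -1.42, -1.27, -1.03 and -0.91 in AZD1480 tumours. All treated tumours were above all controls, and the difference was 0.63 ± 0.17 (1.54-fold, limma unadjusted p = 0.00554). Birc5 (survivin), a chromosomal passenger protein and apoptosis inhibitor often listed as a STAT3 target, measured 4.03, 4.19, 4.04 and 4.11 in vehicle and 4.64, 4.06, 4.41 and 4.30 in AZD1480 tumours. AZD1480 replicate 2 lay within the control range, the difference was 0.26 ± 0.16 (limma unadjusted p = 0.148), and its other probes gave 0.32 and 0.35. The transcription factor Foxm1 was at 0.14 ± 0.15, and Mki67 and Top2a, general markers of cycling cells, were at 0.16 ± 0.16 and 0.11 ± 0.23. Second probes gave 0.26 for Foxm1 and 0.19 for Mki67. The values of these 3 genes are smaller than those of Troap, Cdc25c or Aurka, a contrast that was not tested.

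**Figure D3:**
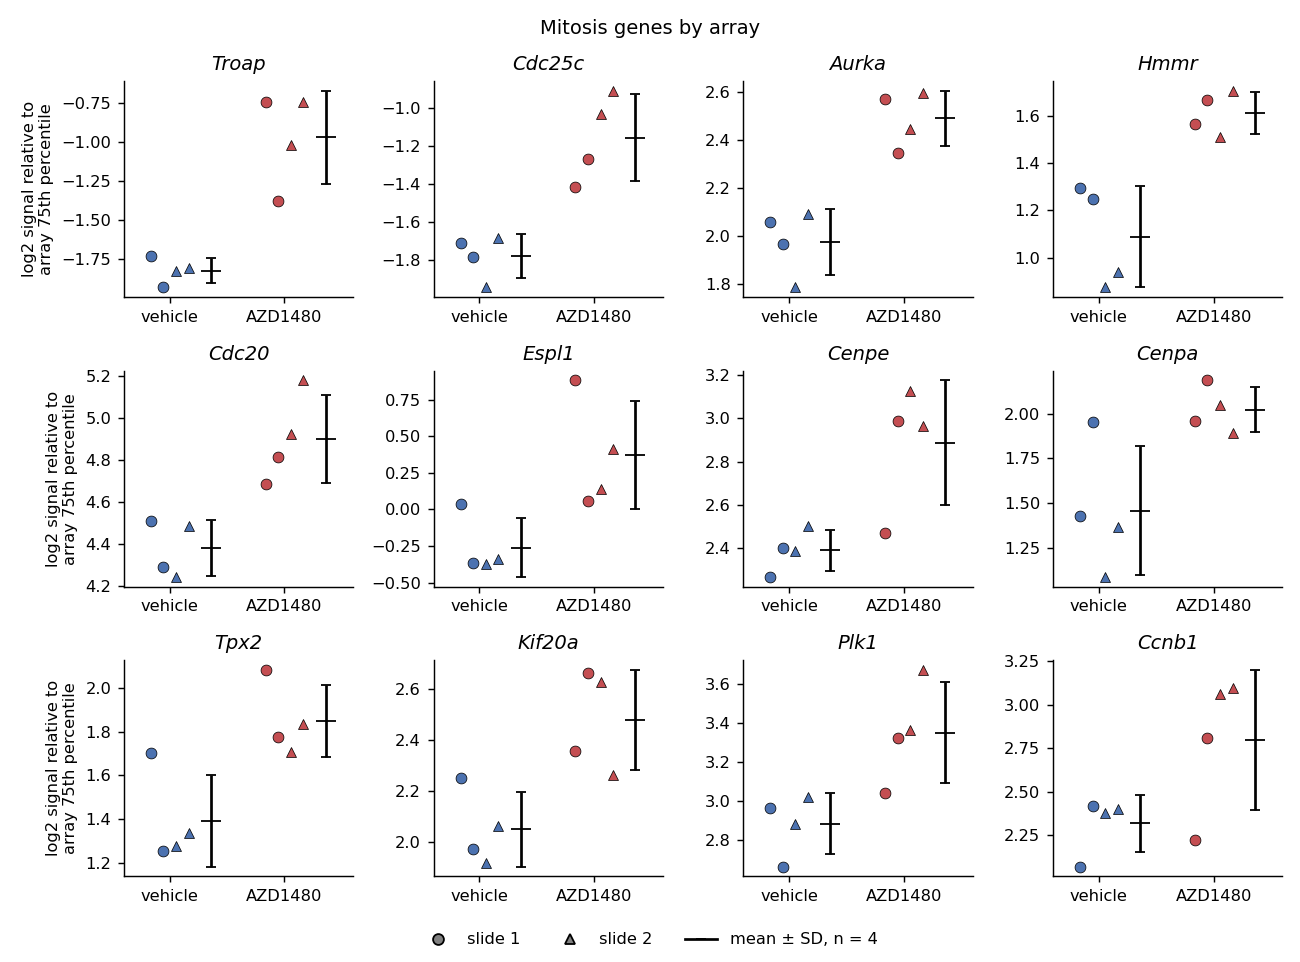
Log2 signal relative to the array's 75th percentile (y axis) is shown for each vehicle and AZD1480 tumour (x axis) in the 11 members with an unadjusted limma p under 0.05 and in Ccnb1; circles are slide 1, triangles slide 2, and the bar is the mean ± SD of 4 arrays. The groups are separate in all panels but Cenpe, Cenpa and Ccnb1.

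For a single gene the exact two-sided permutation test over the 70 ways of drawing 4 of 8 arrays cannot go below p = 0.0286. Any gene whose groups do not overlap gets that value, so it restates the separation and adds no further support. The 11 separate members had it: Troap, Cdc25c, Aurka, Hmmr, Cdc20, Espl1, Tpx2, Kif20a, Plk1, Ube2c and Bub1. Among all genes 1.21% were separate and higher and 1.41% separate and lower. Small spread within groups accompanied these small differences, since the median pooled SD of a member was 0.22 and that of all genes 0.41. Members were also brighter, at a mean level of 1.26 in vehicle and 1.57 in AZD1480, against -1.33 and -1.35 for all genes. The shares of all genes therefore come from mostly dimmer genes, and the part of signal level in the spread was not tested. None of the members reached a difference of 1 on the log2 scale.

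The arrays lay on 2 slides scanned apart, each with 2 vehicle and 2 AZD1480 tumours. The members' median difference was 0.28 within slide 1, where 30 of 33 were positive (55.1% of all genes), and 0.29 within slide 2, where 29 were (52.9%). In 26 of 33 members the difference was positive on each slide, where this held for 31.2% of all genes, and 0 were negative on both. The 7 with opposite signs were Nek2, Melk, Cenpf, Nuf2, Pttg1, Foxm1 and Top2a. Troap was at 0.77 and 0.94 on slides 1 and 2, Espl1 at 0.63 and 0.63, and Aurka at 0.45 and 0.58. Ccnb1, Hmmr, Cdc20 and Cdc25c had larger values on slide 2 (0.69, 0.70, 0.69 and 0.85) than on slide 1 (0.27, 0.35, 0.35 and 0.40), which was not tested. Between the slides themselves 3 members had an unadjusted limma p under 0.05, where 13.3% of all genes did.

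**Figure D4:**
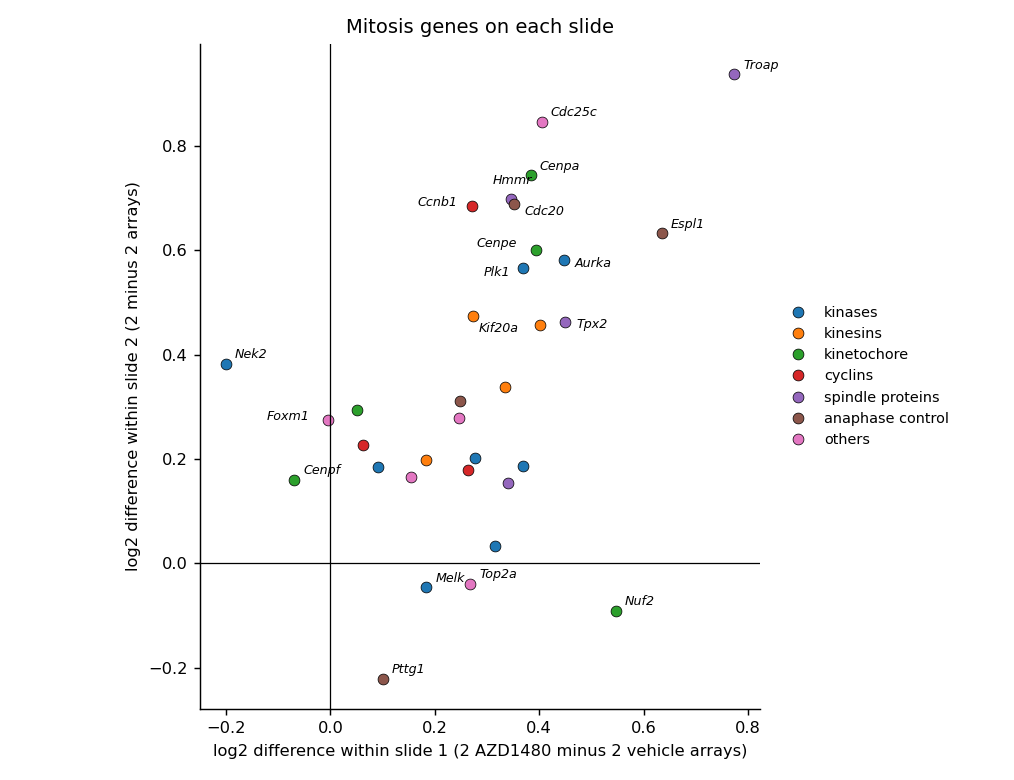
Each point is 1 gene, with its log2 difference within slide 1 (x axis) and within slide 2 (y axis), each from 2 AZD1480 and 2 vehicle arrays and coloured by role; genes with an unadjusted limma p under 0.05, those of opposite sign and Ccnb1 are named. Most points lie in the upper right, and Troap lies farthest out, at 0.77 and 0.94.

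The tumour of AZD1480 replicate 1 stood apart. The summed log2 level of 8 ciliated cell markers was 0.98 there and at least 5.79 on the other arrays, and this tumour was the highest of the 8 arrays for 16 members and the lowest for 3. Without it 29 of 33 members had a positive difference, the median was 0.21, and 12 had an unadjusted limma p under 0.05 (2.20% of all genes). The count of 11 was 5 without vehicle replicate 3, where 1.11% of all genes had such a p and a positive difference. It was 7 without vehicle replicate 2 (2.53% of all genes), vehicle replicate 4 (1.09%), AZD1480 replicate 2 (2.14%) or AZD1480 replicate 3 (5.47%). Vehicle replicate 3 was the lowest array for 13 members.

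Markers of the cell types that a tumour sample can hold were mostly at lower values in the AZD1480 tumours, in part through AZD1480 replicate 1. Of 69 tested markers on 10 lists, 54 had a negative difference, where 8597 of all 19778 genes did. Of these markers 4 had an unadjusted limma p under 0.05, where 1.74% of all genes were lower at such a p. Without that tumour 49 had a negative difference. Ciliated cell markers were lower in 8 of 8 with it and in 5 of 8 without it. Their summed log2 level was 5.79 to 6.51 in vehicle, 0.98 in AZD1480 replicate 1 and 5.95 to 6.08 in AZD1480 replicates 2 to 4, so those 3 lay within the control range. Macrophage markers were lower in 10 of 11 and, without replicate 1, in 8 of 11. Their sum was 4.98 to 5.18 in vehicle, 3.84 in AZD1480 replicate 1 and 4.85 to 5.98 in the other treated tumours, and Cd163 was not above background. The highest sum, in AZD1480 replicate 4, rests largely on Itgam, at 5.52 there and 2.87 to 3.89 in vehicle. By the list's mean log2 level, AZD1480 replicates 2 and 4 lay below all controls (0.20 and 0.41, against 0.51 to 0.72). Replicate 3, at 0.67, lay within the control range. Fibroblast markers were lower in 5 of 8, and in 4 of 8 without replicate 1. Their sum was 5.31 to 5.70 in vehicle, 3.78 in replicate 1 and 5.79 to 6.44 in the other treated tumours. Those higher sums rest largely on Acta2, at 4.98, 5.90 and 5.40 in AZD1480 replicates 2 to 4 and 2.88 to 4.78 in vehicle. By the list's mean log2 level, replicates 2 and 3 lay above all controls (1.87 and 1.92, against 1.25 to 1.61). Replicate 4 lay below them, at 0.86. Epithelial tumour markers, all 12 above background, were lower in 11 of 12 and, without replicate 1, in 9 of 12 (sum 5.31 to 6.94 in vehicle, 5.10 in replicate 1, 5.36 to 6.26 in the others). Granulosa and luteal markers were lower in 5 of 5 with or without it (3.54 to 5.89 in vehicle, 7.23 in replicate 1, 3.38 to 3.74 in the others), and Fshr, Cyp19a1, Cyp11a1 and Lhcgr were not above background. The controls were split: by mean log2 level, vehicle replicates 1 and 3 were at 1.61 and 1.52, and vehicle replicates 2 and 4 at -2.79 and -3.11. AZD1480 replicates 2 to 4 lay between these pairs, at -2.71 to -2.13. Adipocyte markers were lower in 4 of 4 with or without it (-2.48 to 4.99 in vehicle, -3.89 to -1.75 in AZD1480), with Adipoq and Cidec not above background. The top of that control range is vehicle replicate 3. By mean log2 level it was at 0.10, and vehicle replicates 1, 2 and 4 were at -4.07, -6.37 and -4.76. The AZD1480 tumours, at -6.94 to -5.12, overlapped those controls. Endothelial markers were lower in 5 of 8 and, without replicate 1, in 6 of 8 (1.91 to 2.50 in vehicle, 1.47 to 2.43 in AZD1480). T and NK cell markers were lower in 2 of 5, and in 3 of 5 without replicate 1 (0.55 to 0.73 in vehicle, 0.43 to 1.01 in AZD1480), with Cd3g, Cd8a, Ncr1 and Klrb1c not above background. Erythroid markers were lower in 1 of 3, and in 3 of 3 without replicate 1 (2.21 to 6.61 in vehicle, 3.60 to 5.97 in AZD1480). The part of these cell types in the mitosis result was not tested. In bulk tissue more dividing cells and more transcript per dividing cell cannot be told apart.

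Mitosis genes outside the 34, from a list of 115 names with 112 tested, had smaller differences by their median. Positive differences were found in 89 and the median was 0.14. An unadjusted limma p under 0.05 was found in 8 with a positive difference (7.14%, against 1.72% of all genes) and in 0 with a negative one. The largest was Bora, the cofactor through which Aurka activates Plk1, which measured -2.41, -1.83, -2.17 and -2.48 in vehicle and -1.76, -0.96, -1.43 and -1.44 in AZD1480 tumours. Its groups were separate (difference 0.83 ± 0.23, limma unadjusted p = 0.00691). Cenpt, an inner kinetochore protein, was at 0.56 ± 0.17, and Gtse1, which restrains p53 in G2, at 0.62 ± 0.26. Cep55, which recruits the abscission machinery, was at 0.47 ± 0.19, Spag5, a spindle protein, at 0.41 ± 0.17, and Cdca8, a passenger complex subunit, at 0.39 ± 0.17. Ccnf, an F-box cyclin, and Nde1, a dynein regulator, were at 0.37 ± 0.15 and 0.33 ± 0.13. By class, positive differences were found in 26 of 29 other kinetochore genes, 7 of 8 checkpoint and passenger genes, 5 of 6 other kinesins and 5 of 5 cytokinesis genes. They were found in 12 of 15 genes of the anaphase-promoting complex, 12 of 15 genes of mitotic entry, 12 of 17 other spindle genes and 10 of 17 condensin and cohesin genes, where 56.5% of all genes were positive. The classes were not tested against each other. The count of 8 was 7 or lower when any single array was left out, and in 2 of these fits its share was below that of all genes. It was 2 without vehicle replicate 2, where 2.53% of all genes had such a p and a positive difference, and 5 without AZD1480 replicate 3, where 5.47% did. It was 3 without vehicle replicate 4 (1.09% of all genes), 4 without vehicle replicate 3 (1.11%) and 4 without AZD1480 replicate 1 (2.20%), and in the last the median was 0.057.

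DNA replication genes, which are transcribed earlier in the cell cycle, are set beside the mitosis genes as the most similar proliferation list. Of 40 tested, 9 had a positive difference, where 56.5% of all genes did, and the median was -0.089. An unadjusted limma p under 0.05 was found in 0 in either direction, where 1.72% of all genes were higher and 1.74% lower at such a p. The 3 with the smallest p were the polymerase alpha subunit Pola1 (-0.32 ± 0.17), the helicase cofactor Gins3 (-0.35 ± 0.20) and the helicase subunit Mcm4 (-0.23 ± 0.17). Within slide 1 the replication median was -0.0058 and 20 of 40 were positive (55.1% of all genes), and within slide 2 it was -0.15 with 3 of 40 (52.9%). The difference between the lists was not tested, and both were chosen with earlier results of these data known.

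**Figure D5:**
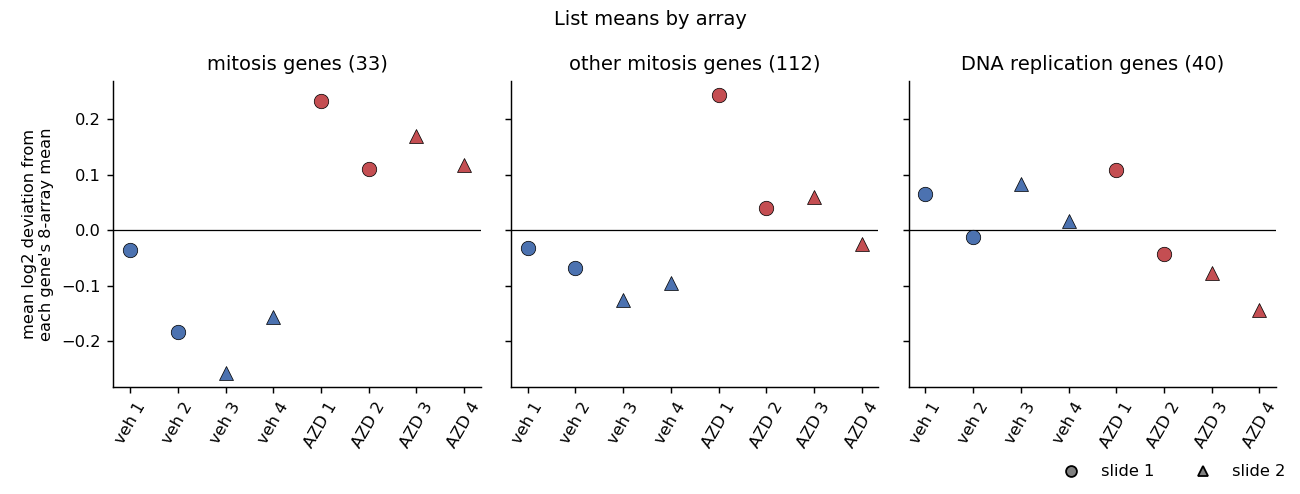
For each array (x axis), the y axis gives the mean log2 deviation of a list's genes from their own 8-array mean, for the 33 mitosis genes, the 112 other mitosis genes and the 40 DNA replication genes; circles are slide 1 and triangles slide 2. The mitosis genes lie between -0.26 and -0.035 in the 4 vehicle tumours and between 0.11 and 0.23 in the 4 AZD1480 tumours. The other mitosis genes are also separate, but barely, at -0.12 to -0.032 in vehicle and -0.025 to 0.24 in AZD1480 tumours. Their highest value is that of AZD1480 replicate 1. Replication genes overlap between groups.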

How the data were processed

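Cy3-labelled total RNA from each of the 8 tumours was read on Agilent one-colour arrays, and the submitters' processing notes name Agilent Feature Extraction 9.5.3. Spatial and multiplicative detrending had been applied to the processed intensity of each array, per the file headers. The authors' deposited value table holds log2 values that, once sorted, are the same in its 8 columns (tolerance 0.01, median 8.36). Columns of this kind are what quantile normalization gives. The value table was used as an alternative only.

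Processed intensities were put on the log2 scale and centred on each array's 75th percentile (1587 to 5795 before centring) over probes that are not controls; outlier spots were left out and spots of a probe averaged. Genes were read from their brightest probe that passed the background filter. Between 66.9% and 76.4% of an array's spots were well above background, and 4 arrays per group limit the precision. The two-sided comparison of treatments used lmFit and eBayes (limma 3.58.1, R 4.3.3) and was checked on simulated data. Members were taken by the file's gene name; 26055 of 39429 probes were named through an accession in the RefSeq table, and the rest kept the file's name where there was one. Members and lists were chosen with earlier results of these data known. Array values are given for members with an unadjusted p under 0.05, the member of smallest p in each role group and Birc5; other members are given by their difference. Mitosis genes outside the 34 are named for an unadjusted p under 0.05, and 3 replication genes for the smallest p. Summed levels are log2 of the sum of the tested markers on the linear scale. The values of 1 of the 10 marker lists are not reported here. Alternatives were normexp background correction (offset 50), quantile and median scaling, the value table, other filters, the mean of probes, slide or replicate number as a block, single slides, array weights and leaving out each array.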

Additional observations from a re-analysis of the deposited data

Results flagged for a closer look

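In 6 of the 66 groups of 4 arrays (33 members in 2 groups), the highest or lowest array stood far from the rest, its gap exceeding 0.829 of the group's range; chance gives about 1 in 20. AZD1480 replicate 1 was high for Bub1b at 1.52, with the others at 0.86 to 0.97, and for Prc1 at 4.33, with the others at 3.79 to 3.86. Vehicle replicate 1 was high for Ccna2 at 3.26 (others 2.91 to 2.95), for Kif11 at 0.50 (others -0.11 to -0.0061) and for Espl1 at 0.040 (others -0.37 to -0.34). It was low for Ccnb1 at 2.07 (others 2.38 to 2.42).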

How the results depend on the processing

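No gene was called by limma with Benjamini-Hochberg adjustment under any of the 20 alternatives, and the lowest adjusted p of a member was 0.501. The members' median difference stayed between 0.21 and 0.33, and 29 to 33 members were positive. The count of 11 members with an unadjusted p under 0.05 became 6 with median scaling and 0 within slide 1, where 30 of 33 were positive and 0.662% of all genes had such a p and a positive difference; it ran from 5 to 12 when arrays were left out. Of the 33 members 25 kept their sign in all 20 alternatives, and Cdk1, Nek2, Melk, Cenpf, Nuf2, Pttg1, Foxm1 and Top2a changed it in at least 1. The 8 other mitosis genes (1.72% of all genes) became 2 with median scaling (1.31%), 3 with no filter (1.82%), 4 with quantile scaling (1.94%), 5 with normexp (1.64%), 0 within slide 1, 3 within slide 2 (1.64%), 13 with array weights (2.99%) and 15 with slide as a block (2.33%). With the replicate block the members' count was 11 and the median 0.26, and with slide as a block the count was 12. The deviations of same-numbered arrays correlated at 0.36, 0.36, 0.13 and -0.059, so the numbers were not taken to pair the samples. The causes of these shifts were not tested.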
